A study of Danio rerio with 4 samples.

Results

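A set of 40 genes of mitosis was followed across the cell lineages of the zebrafish gastrula at the shield stage, in siblings and in maternal *rbm24a* mutants (M*rbm24a*). The set was a list of named genes, and every entry of the feature list with one of these symbols, with or without a numeric suffix, was counted as its gene. All 40 symbols were found, in 53 of 47394 entries, and 37 of the 40 genes had a value above 0 in any cell. The measurements were single-cell RNA-seq (scRNA-seq) counts of mRNA 3′ ends in droplets, from 2 sibling and 2 M*rbm24a* libraries of whole embryos. M*rbm24a* embryos came from females of a knock-in line that carries Rbm24a fused to RFP and a *cas9* driven by the oocyte promoter *zpc*, together with a transgene for guide RNAs against *rbm24a* and a BFP under the *ef1a* promoter. Such embryos were picked by BFP and by the lack of the RFP fusion. The mothers were injected founders, so editing in their germ line was mosaic and need not be complete in each egg. The controls are named siblings in the sample titles and wild type in the protocol, and whether they carry the knock-in is not said. Each suspension pooled 33 embryos, dissociated at the shield stage, so the libraries and not the embryos are the replicates.

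Cells of 3000 or more unique molecular identifiers (UMIs, 1 per captured mRNA molecule) were kept, which left 11338 of 14455 cells. Values of the 4 libraries are given in one order throughout, the pair of siblings first and the M*rbm24a* pair after it, each by replicate number. The libraries held 3315, 2354, 2550 and 3119 kept cells. The median of these cells was 13793 to 16150 UMIs by library. The targeted gene *rbm24a* had 0.441, 0.460, 0.376 and 0.321 UMIs per 1000000 UMIs of these cells, from 17.0 to 27.1 UMIs a library, and was not called between genotypes (log2 fold change −0.31, edgeR adjusted p = 0.625). So few UMIs of a gene mutated in its sequence do not check the genotype labels. Only 16 barcodes occurred in more than 1 library, in 32 cells. A cell was placed in a lineage by a value over 0.5 for 1 marker: *krt92* for the enveloping layer (EVL), *sox32* for endoderm, *noto* for axial mesoderm, *tbx6l* for paraxial mesoderm, *foxi1* for epidermal ectoderm and *her3* for neural ectoderm. This gave 366, 3674, 3534, 3298, 2226 and 3260 cells in that order. The groups overlap, since 4694 cells had 1 of the 6 markers, 2513 had 2, 1916 had 3 or more and 2215 had none.

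Other markers of each lineage were compared between cells with and without the chosen marker. In *krt92* cells 9 of 10 further EVL markers were higher in all 4 libraries, with a median ratio of 2815, and *cyt1*, an EVL keratin, had the highest ratio of 17480. The *sox32* cells had 6 of 6 endoderm markers higher, the *noto* cells 5 of 5 axial markers, the *tbx6l* cells 6 of 6 paraxial markers and the *foxi1* cells 7 of 8 epidermal markers, but with median ratios of only 2.52 to 2.80. The *her3* cells had 4 of 7 neural markers higher, with a median ratio of 1.26. By these pooled ratios only *krt92* split off a sharply different group, though its cells were not all alike, as given below. The other groups are called here by their marker.

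Mitosis is entered when cyclin B and its kinase become active, and it ends when the anaphase-promoting complex, with Cdc20 and the ubiquitin-conjugating enzyme Ube2c, destroys cyclins and the inhibitor of separase. Between these points condensins and topoisomerase II compact and untangle the chromosomes, kinetochores and the spindle checkpoint hold anaphase back until every chromosome is attached, and kinesins and midzone proteins build the spindle and the cleavage furrow. In the zebrafish embryo, the deep cells still divide during gastrulation, while the EVL, a thin outer epithelium, divides less and spreads over the yolk as large flat cells.

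The mitosis genes together took 0.718%, 0.761%, 0.721% and 0.734% of all UMIs in the kept cells of the 4 libraries. The highest members over all cells were the cyclin *ccna2* at 564 UMIs per 1000000 UMIs of the same cells (counts scaled in this way are given as CPM), *cdc20* at 524, the kinetochore gene *cenpf* at 510, *ube2c* at 502 and the cyclin *ccnb1* at 454. These 5 made up 34.9% of the UMIs of the set, and the 10 highest made up 57.5%. Counts of 3′ ends were not divided by gene length, and a level compares a gene between groups of cells better than it compares 2 genes. A value over 0.5 was found for *ccna2* in 97.8% and for *ccnb1* in 96.5% of kept cells. At the other end stood 8 members above 0 and under 50 CPM, among them the condensin subunit *ncapg* (0.937), the survivin paralog *birc5b* (1.35), the midzone paralog *prc1b* (6.52) and separase, *espl1* (9.82).

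The mitotic kinases *cdk1* and *plk1* and the condensin subunit *smc2* were listed at 0 in all 14455 cells. Each of the 3 has 2 entries in the feature list. Of the 9 members with more than 1 entry, 3 were at 0, against none of the 31 members with 1 entry. Over all symbols, 33.8% of 5969 symbols with more than 1 entry were at 0 in every cell, against 14.7% of 24926 symbols with 1 entry. Every dividing cell uses *cdk1*, *plk1* and *smc2*, so their 0 is no measure of their mRNA, and they stay out of every test. Of members with several entries, *ccnb3*, *hmmr*, *kif23* and *birc5b* were above 0 in all of 2 entries and *espl1* and *ncapg* in 2 of 4, and the entries were summed.

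The lowest shares of the mitosis genes were those of the *krt92* cells. In *krt92* cells the set took 0.291%, 0.352%, 0.356% and 0.591% of UMIs. In the cells without *krt92* of the same libraries it took 0.732%, 0.774%, 0.730% and 0.746%. The 2 ranges did not overlap, and the share was lower in the *krt92* cells of all 4 libraries, with a mean log2 ratio of −0.96 ± 0.43 (SD, n = 4). An exact sign-flip test over the 4 libraries gave a two-sided p of 0.13, the smallest it can give. In M*rbm24a* 2 the log2 ratio was −0.33, the smallest of the 4, against −1.33, −1.14 and −1.04 in the other libraries.

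**Figure D1:**
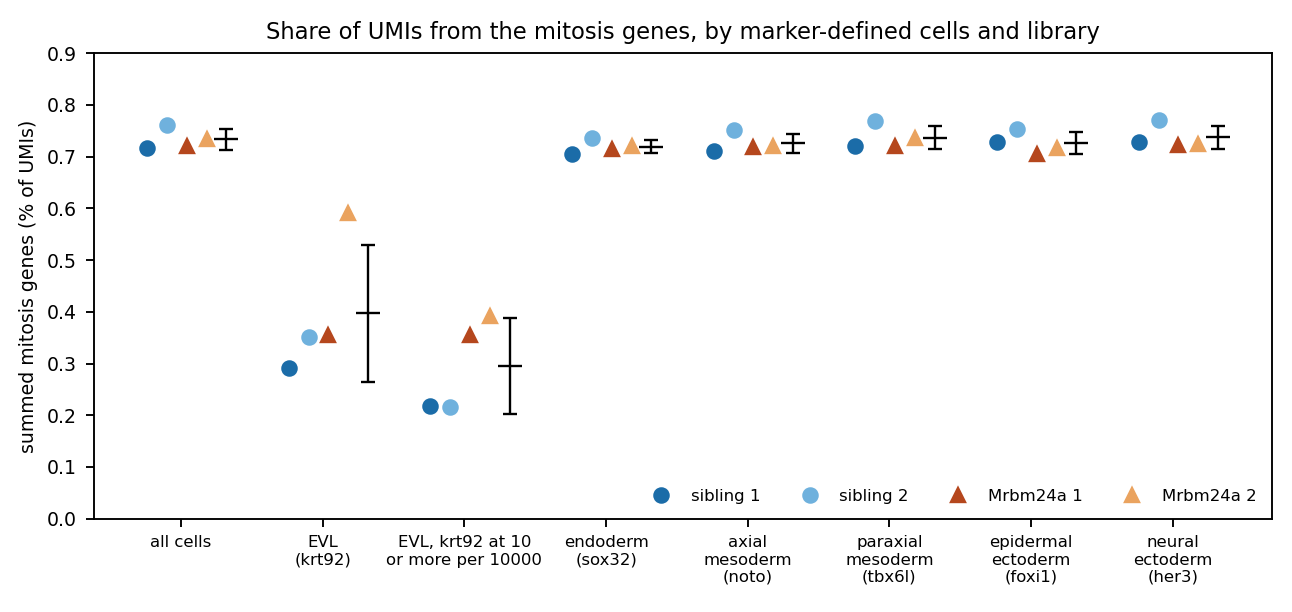
Share of UMIs from the summed mitosis genes (y axis, percent) in all kept cells, in *krt92* cells, in *krt92* cells at 10 or more per 10000 UMIs and in the cells with each other marker (x axis). Points are the 4 libraries and the bar is their mean with SD; the *krt92* cells lie at 0.291% to 0.591% and the cells of the other markers at 0.705% to 0.772%.

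With the other markers the shares lay close to those of cells without the marker. Cells with *krt92* were not removed from either side, and their part in the ratios was not tested. The share of all kept cells was 0.718%, 0.761%, 0.721% and 0.734%, and without *krt92* cells 0.732%, 0.774%, 0.730% and 0.746%. The mean log2 ratio of the summed share against cells without the marker was −0.05 ± 0.02 (SD, n = 4) for *sox32*, −0.03 ± 0.02 for *noto*, 0.01 ± 0.01 for *tbx6l*, −0.02 ± 0.04 for *foxi1* and 0.01 ± 0.03 for *her3*. The exact sign-flip p was 0.13 for *sox32* and *noto*, lower in 4 of 4 libraries, and 0.25, 0.375 and 0.375 for the others. With cells without *sox32* drawn to the same UMI distribution the mean log2 ratio for *sox32* was 0.03, above 0. Of the 37 members, 32 had their lowest mean level in *krt92* cells, *prc1b*, *birc5b*, *hmmr* and *ect2* had their highest there, and *bub1bb* had neither. Over the other 5 groups the median member spanned 0.08 on the log2 scale from its lowest to its highest group. These groups share many cells, and the span was not computed without the cells of several markers. Share ratios that moved without such cells are given below. The spindle gene *hmmr* spanned 0.38, *prc1b* 0.32 and *ncapg*, which had few UMIs, 0.41, while the centralspindlin kinesin *kif23* spanned 0.02 and *ccnb2* 0.03.

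Gene by gene, edgeR's quasi-likelihood test on sums per library, with the library as a term, called 21 of 37 members lower in *krt92* cells and 1 higher at an adjusted p below 0.05. Over all 17061 genes tested 13.4% were called lower and 16.4% higher. The median log2 fold change was −0.87 over the members and −0.16 over all genes. With RLE factors in place of TMM the median of all genes was −0.03 and that of the members −0.74. With limma on log2(CPM + 1), which changes the test and the scale together, they were −0.25 and −0.94. Of the genes called, 55.0% were higher as tested, 64.7% with RLE factors and 39.1% with limma, and no called member changed sign under either. The number of members called was 9 without sibling 1, 13 without sibling 2, 11 without M*rbm24a* 1 and 31 without M*rbm24a* 2, where 18.2%, 20.4%, 19.7% and 43.0% of all genes were called.

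Cyclins, kinases and the genes of mitotic exit were lower in 6 of 9. The level of *ccnb1* in *krt92* cells was 131, 146, 203 and 520 CPM, against 451, 445, 461 and 482 in other cells. It was thus lower in 3 libraries and higher in M*rbm24a* 2, and edgeR's log2 fold change was −0.98 (SE 0.32, adjusted p = 0.0275). The level of *cdc20*, the activator of the anaphase-promoting complex, was 131, 210, 135 and 497 in *krt92* cells and 511, 549, 523 and 551 in other cells. This was lower in all 4, with a log2 fold change of −1.23 (SE 0.32, edgeR adjusted p = 0.00770). The kinase of the passenger complex *aurkb* had 107, 101, 115 and 259 against 202, 223, 193 and 192, which overlap in range, and it was not called (−0.45, SE 0.29, adjusted p = 0.262). Neither were *aurka*, which drives centrosome maturation, nor *espl1*, at −0.34 and −0.45.

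Of the checkpoint, kinetochore and passenger complex genes 4 of 11 were lower: *cenpf*, *incenp*, *ttk* and *cenpe*. The kinetochore gene *cenpf* had 158, 228, 116 and 171 CPM in *krt92* cells and 513, 637, 465 and 494 in other cells, with no overlap, and a log2 fold change of −1.53 (SE 0.25, edgeR adjusted p = 0.000127). The scaffold of the passenger complex, *incenp*, was lower by −1.17 (adjusted p = 0.00198), while its partners *cdca8* (borealin) and *birc5a* (survivin) had −0.27 and −0.32 and were not called. The survivin paralogs stood on opposite sides of 0, but *birc5b* rested on 23.0 UMIs in all *krt92* cells, at 1.39, 1.38, 5.17 and 3.04 CPM against 1.26, 0.682, 1.71 and 1.40, and was not called (1.20, SE 0.51, edgeR adjusted p = 0.0845). The checkpoint genes *bub1*, *bub1bb* and *mad2l1* were not called, at −0.62, −0.08 and −0.51.

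All 3 well measured genes of chromosome structure were lower. Topoisomerase *top2a*, which untangles sister DNA, had 90.7, 107, 191 and 155 CPM in *krt92* cells and 322, 301, 346 and 346 in other cells, a log2 fold change of −1.19 (SE 0.25, edgeR adjusted p = 0.00164). The condensin core subunit *smc4* had 99.2, 167, 108 and 119 against 229, 279, 231 and 240, a log2 fold change of −0.87 (SE 0.24, adjusted p = 0.00957), and the condensin I subunit *ncapd2* had −1.13. For all 3 the *krt92* cells and the other cells did not overlap. The remaining one, *ncapg*, had 1.88 UMIs in all *krt92* cells together and was not called.

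The spindle and cytokinesis genes held both the largest decrease and the only increase, with 8 of 13 lower and 1 higher. The bipolar spindle kinesin *kif11* had 69.9, 80.7, 55.1 and 134 CPM in *krt92* cells and 286, 310, 275 and 268 in other cells, with no overlap, and a log2 fold change of −1.67 (SE 0.28, edgeR adjusted p = 0.000175). The microtubule bundler *nusap1* had 87.5, 108, 126 and 221 against 346, 376, 327 and 334, with −1.30 (adjusted p = 0.00200). The centralspindlin gene *racgap1* had 7.42, 15.2, 11.1 and 7.06 against 24.2, 29.9, 21.4 and 22.6, with −1.20 (adjusted p = 0.00397). The paralogs of the midzone bundler PRC1 differed. In *krt92* cells *prc1b* had 20.7, 9.31, 15.4 and 8.52 against 7.12, 6.92, 5.18 and 5.80, a log2 fold change of 1.18 (SE 0.33, edgeR adjusted p = 0.0111) on 105 UMIs. The far more abundant *prc1a* had 131, 213, 146 and 140 against 187, 217, 179 and 187 and was not called (−0.17, adjusted p = 0.613). How reads were shared between such paralogs is not given, so the split between them is uncertain. The furrow genes *anln* and *ect2* and the spindle gene *hmmr* were not called, at −0.36, 0.25 and 0.33.

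**Figure D2:**
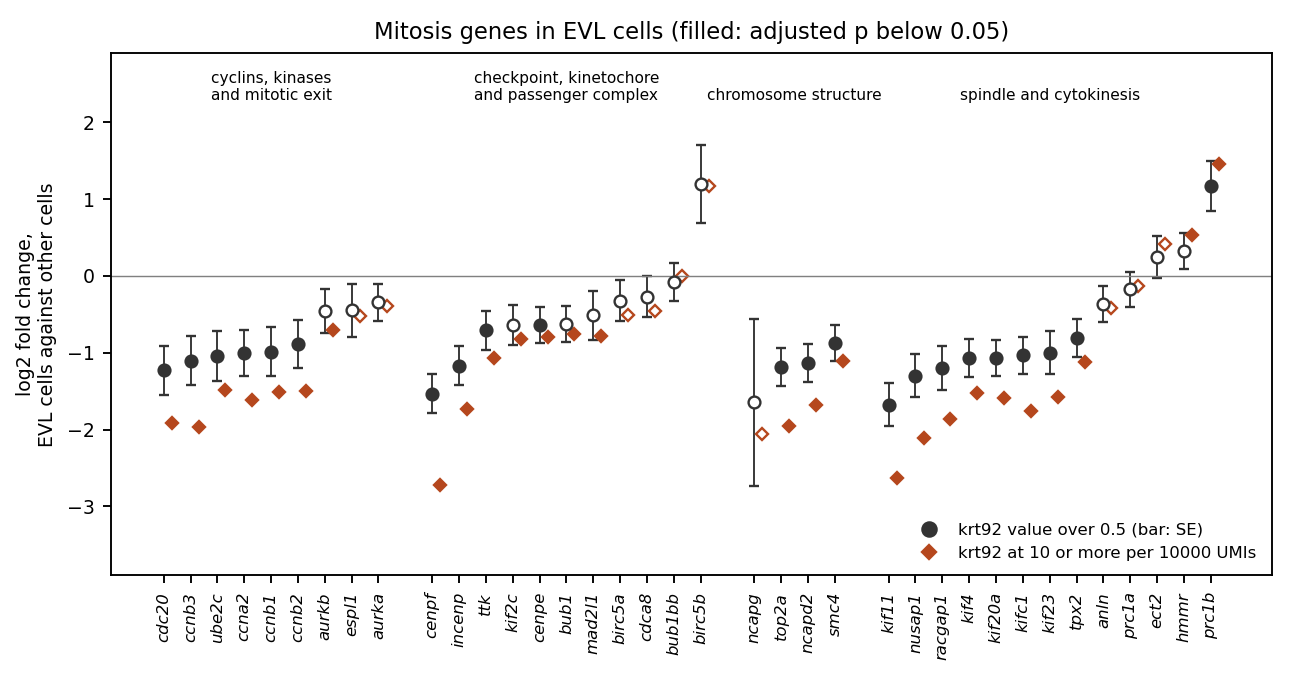
Log2 fold change of each member in *krt92* cells against other cells (y axis) by role (x axis), for *krt92* over 0.5 (circles, bar SE) and for *krt92* at 10 or more per 10000 UMIs (diamonds); filled symbols have an edgeR adjusted p below 0.05. Most members lie below 0, down to −1.67 for *kif11* in the circles and −2.72 for *cenpf* in the diamonds, and *prc1b* lies above it in both.

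The cells with *krt92* were not of 1 kind. Of the 366, 224 had *krt92* at 10 or more per 10000 UMIs (81, 46, 46 and 51 by library) and 142 had less (46, 54, 0 and 42). This limit was set after the values had been seen, and 27 cells lay between 5 and 20 per 10000. Above it the mitosis genes took under 0.5% of the UMIs in 211 of 224 cells, and below it in 10 of 142. The summed share above the limit was 0.218%, 0.215%, 0.356% and 0.392%, and below it 0.711% and 0.824% in the siblings and 0.688% in M*rbm24a* 2, close to that of cells without *krt92*. The median cell above the limit, thinned to 3000 UMIs, held 6, 5, 10 and 10 UMIs of the set in the 4 libraries, against 21, 22, 22 and 22 in cells without *krt92*. The cells below the limit had a median of only 12.7 and 24.1 UMIs per 10000 for all EVL markers in the siblings and 16.5 in M*rbm24a* 2, against 529 to 1056 above it. Their median was also only 4554.5 and 4215 UMIs in the siblings and 5730 in M*rbm24a* 2, against 19269 to 23570 above it. Mitochondrial genes took 4.84% and 6.87% of their UMIs in the siblings and 0.219% in M*rbm24a* 2, against 0.171% to 1.13% above it. Whether the cells below the limit belong to the EVL was not tested.

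Depth also differed. M*rbm24a* 2 had 22 *krt92* cells of over 60000 UMIs, up to 204750, against 2 and 1 in the siblings and 0 in M*rbm24a* 1. They held 76.8% of the UMIs of its *krt92* cells, with a summed mitosis share of 0.665% and a median of 27.5 EVL marker UMIs per 10000. Doublets were removed by the authors before deposit, and whether these cells are doublets was not tested. Without cells of over 60000 UMIs the share in *krt92* cells was 0.299%, 0.368%, 0.356% and 0.349%, a mean log2 ratio of −1.13 ± 0.11 (SD, n = 4), and 29 members were called lower and 1 higher, where 25.6% and 20.3% of all genes were. Of all kept cells, 37, 14, 58 and 93 had over 60000 UMIs. By library, 31, 12, 58 and 85 of these had *sox32*, and 32, 11, 51 and 79 had *noto*. Further, 28, 11, 46 and 77 had *tbx6l*, 21, 12, 27 and 52 had *foxi1*, and 33, 12, 33 and 71 had *her3*. The limit of 60000 UMIs was not applied to the groups of these markers.

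**Figure D3:**
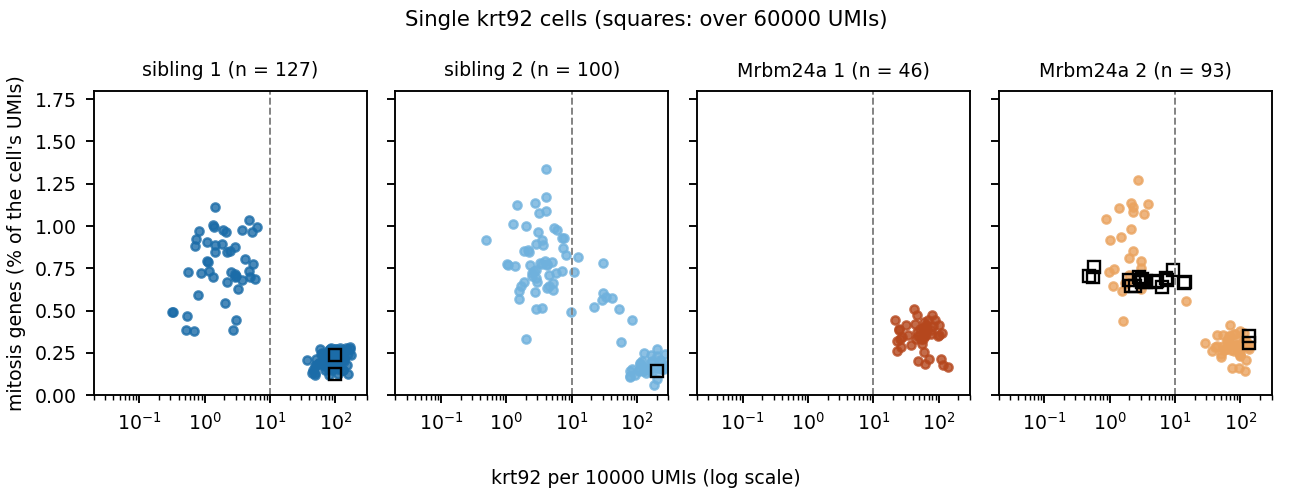
Share of each *krt92* cell's UMIs from the mitosis genes (y axis, percent) against its *krt92* UMIs per 10000 (x axis, log scale) in the 4 libraries, with squares for cells over 60000 UMIs and a dashed line at 10. Cells right of the line lie mostly under 0.5%, M*rbm24a* 1 has no cell left of it, and most of the 22 squares of M*rbm24a* 2 lie left of it.

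In *krt92* cells at 10 or more per 10000 UMIs, 25 of 37 members were lower and 2 higher by edgeR, where 24.7% and 19.9% of all 17005 genes were. They were compared with cells without *krt92*, and the *krt92* cells below the limit were on neither side. The limit was set after the values had been seen, so the adjusted p-values here are not those of a limit fixed in advance. The median log2 fold change was −1.12 over the members and −0.24 over all genes. The 5 largest called decreases were *cenpf* (−2.72), *kif11* (−2.64), *nusap1* (−2.11), *ccnb3* (−1.97) and *top2a* (−1.95), and *cdc20* followed with −1.91. Here *aurkb* (−0.70, adjusted p = 0.0350), *bub1*, *mad2l1* and *kif2c* also passed, and *hmmr* joined *prc1b* among the higher genes (0.53 and 1.46, edgeR adjusted p = 0.0392 and 0.00165). Leaving out each library in turn gave 23 to 29 called members. With cells over 60000 UMIs also left out, 28 were lower and 2 higher, against 27.8% and 20.1% of all genes.

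All 366 *krt92* cells, those below the limit and those of over 60000 UMIs included, were read for other genes of the cell cycle. The lists were written down with the study's earlier results known. Of the DNA replication list, 23 of 34 tested genes were lower in *krt92* cells by edgeR and all calls were in that direction (median log2 fold change −1.04), with *fen1*, the flap endonuclease, at −1.84 and the helicase subunits *mcm5* and *mcm6* at −1.50 and −1.39. Of all 17061 genes tested in these cells, 13.4% were called lower and 16.4% higher. Of other mitosis genes, 18 of 54 (33.3%) were lower, led by the tubulin *tuba8l4* (−1.66) and the lamin *lmnb1* (−1.35), and 3 (5.56%) were higher. These 3 were the abscission gene *cep55l* (1.61), the inhibitor of mitotic entry *wee1* (1.21) and Greatwall kinase, *mastl* (0.85). Of the list of G1 and cell cycle exit, 8 of 24 (33.3%) were higher and 3 (12.5%) lower, and its median was −0.28, against −0.16 over all genes. The gene *wee1* is on both lists and is counted as higher in each. The lower genes were *cdkn1cb* (−1.95), *cdk6* (−1.35) and *rbl1* (−0.70). Among the higher genes, those of stress and growth arrest were prominent: *gadd45ba* (5.97), *gadd45bb* (4.05) and *gadd45aa* (3.71). The level of *gadd45ba* was 304, 343, 246 and 103 CPM in *krt92* cells against 7.82, 6.83, 2.72 and 1.68 in other cells. The CDK4 and CDK6 inhibitor *cdkn2c* had a log2 fold change of 4.0 from levels of only 0.402 to 2.74 CPM.

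With the other markers, 13 members were called in *tbx6l* cells and 13 in *sox32* cells. Cells with *krt92* were not removed from either side. EVL markers took less of the UMIs with *tbx6l* or *sox32* than without, in each library. In sibling 1 they took 0.0699% against 0.321% for *tbx6l* and 0.0152% against 0.368% for *sox32*. The part of *krt92* cells in these calls was not tested. In *tbx6l* cells 12 of 37 were higher and 1 lower by edgeR, against 11.7% and 9.53% of all 16185 genes, with medians of 0.09 over the members and 0.01 over all genes. With RLE factors these medians were 0.09 and 0.01, and with limma on log2(CPM + 1) −0.01 and −0.07. The log2 fold changes of edgeR carry TMM factors and the CPM do not, so the sign of small differences depends on the scaling. The hyaluronan receptor and spindle gene *hmmr* had 93.8, 96.8, 80.5 and 77.6 CPM, against 73.1, 72.6, 68.9 and 66.9 in cells without *tbx6l*. The groups did not overlap, and its log2 fold change was 0.40 (SE 0.05, edgeR adjusted p = 0.00119). The level of *ube2c* was 576, 581, 530 and 571 against 470, 469, 470 and 458, again apart, with 0.37 (SE 0.05, adjusted p = 0.00143). Smaller increases were seen in *mad2l1* (257, 270, 271 and 322 against 242, 253, 254 and 258, log2 fold change 0.25), *ccnb1* (467, 465, 477 and 520 against 427, 421, 436 and 456, 0.25) and *birc5a* (130, 114, 128 and 141 against 119, 106, 121 and 119, 0.24). Each was higher in 4 of 4 libraries, with ranges apart for *ccnb1* and overlapping for the others. The checkpoint kinase *bub1bb* was the gene called lower, with 106, 119, 111 and 101 against 127, 146, 128 and 135 (−0.20, edgeR adjusted p = 0.00669). On log2(CPM + 1) limma called 2 higher and 2 lower, and leaving out 1 library gave 5 calls without sibling 1, 8 without sibling 2 and up to 11.

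Cells with *sox32* had 8 members higher and 5 lower of 37, against 10.2% and 6.95% of all 16419 genes. The medians over the members and over all genes were 0.002 and −0.01 as tested, and −0.09 and −0.08 with limma on log2(CPM + 1). The higher genes were led by *mad2l1* (261, 271, 273 and 324 CPM against 238, 253, 244 and 248, log2 fold change 0.29), *cdca8* (243, 216, 262 and 274 against 225, 186, 245 and 232, 0.26) and *ube2c* (550, 527, 518 and 547 against 479, 496, 467 and 469, 0.26). They were followed by *birc5a* (130, 111, 131 and 140 against 118, 107, 114 and 118, 0.25) and *ccnb3* (138, 149, 141 and 149 against 129, 139, 129 and 129, 0.23). All 5 were higher in 4 of 4 libraries, and the ranges were apart for *mad2l1* and *ube2c*. The lower genes were *racgap1* (19.9, 26.5, 20.1 and 17.1 against 25.9, 30.7, 22.8 and 25.8, −0.25), *cenpf* (442, 552, 416 and 398 against 536, 655, 518 and 542, −0.23) and the chromokinesin *kif4* (49.5, 63.1, 45.0 and 40.7 against 58.1, 72.4, 56.3 and 56.2, −0.21). To these came *bub1bb* (107, 126, 114 and 101 against 127, 142, 129 and 138, −0.17) and the kinetochore motor *cenpe* (148, 164, 146 and 135 against 167, 192, 167 and 170, −0.14). These 5 were lower in 4 of 4 libraries, and the ranges were apart for *bub1bb* and *cenpe*. Depth moved with the marker: the median *sox32* cell had 15710 to 21686 UMIs by library and the median cell without it 12223 to 15421. With the marker called in values thinned to 3000 UMIs no member was called, and limma on log2(CPM + 1) called 1.

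In the remaining groups few members were called, and counts this small do not set the members apart from all genes. In *noto* cells 2 members were higher and 2 lower, against 3.63% and 2.8% of all 16127 genes. They were *birc5a* (132, 117, 130 and 140 against 116, 104, 118 and 120, log2 fold change 0.23) and *hmmr* (87.1, 88.5, 75.7 and 73.0 against 75.3, 76.3, 72.9 and 70.6, 0.18), and *racgap1* (20.8, 27.9, 19.2 and 18.3 against 25.6, 30.2, 23.1 and 24.1, −0.22) and *cenpf* (467, 584, 423 and 403 against 524, 645, 490 and 526, −0.18). None was called with limma, with other cells drawn to the same depth or without sibling 1, while 11 had an unadjusted p under 0.05 in edgeR. In *foxi1* cells none was higher and *hmmr* alone was lower, against 1.07% and 1.37% of all 15880 genes. Its level was 70.7, 68.6, 67.3 and 61.8 against 83.3, 84.7, 76.8 and 76.0, with no overlap, at −0.22 (SE 0.04, edgeR adjusted p = 0.0302). In *foxi1* cells 11 members had an unadjusted p under 0.05, DESeq2 called 1 higher and 1 lower, limma none, and without any 1 library edgeR called none.

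In *her3* cells 2 members were higher and 2 lower of 37, against 6.92% and 11.2% of all 16117 genes. As tested, the members were thus called no more often than all genes were. Cyclin B3, *ccnb3*, had 148, 160, 144 and 155 CPM against 121, 129, 132 and 129 in cells without *her3*, with no overlap, and a log2 fold change of 0.31 (SE 0.05, edgeR adjusted p = 0.00296). Survivin, *birc5a*, had 128, 113, 129 and 137 against 118, 105, 121 and 124 (0.17). Lower were *prc1b*, with 6.61, 5.68, 4.33 and 4.82 against 8.25, 7.85, 6.01 and 6.73 (−0.36), and *hmmr*, with 68.8, 69.7, 69.2 and 62.0 against 88.4, 87.2, 77.0 and 77.6 (−0.23). So *hmmr* was called with 4 of the 5 markers other than *krt92*, higher with *noto* and *tbx6l* and lower with *foxi1* and *her3*, while *birc5a* was called higher with 4. These groups share cells and libraries and are not independent. With RLE factors 10 members were called higher and 2 lower in *her3* cells, where 9.52% of all genes were called higher and 20.5% in either direction, and with DESeq2 12 and 1, against 7.38% higher and 15.4% in all.

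**Figure D4:**
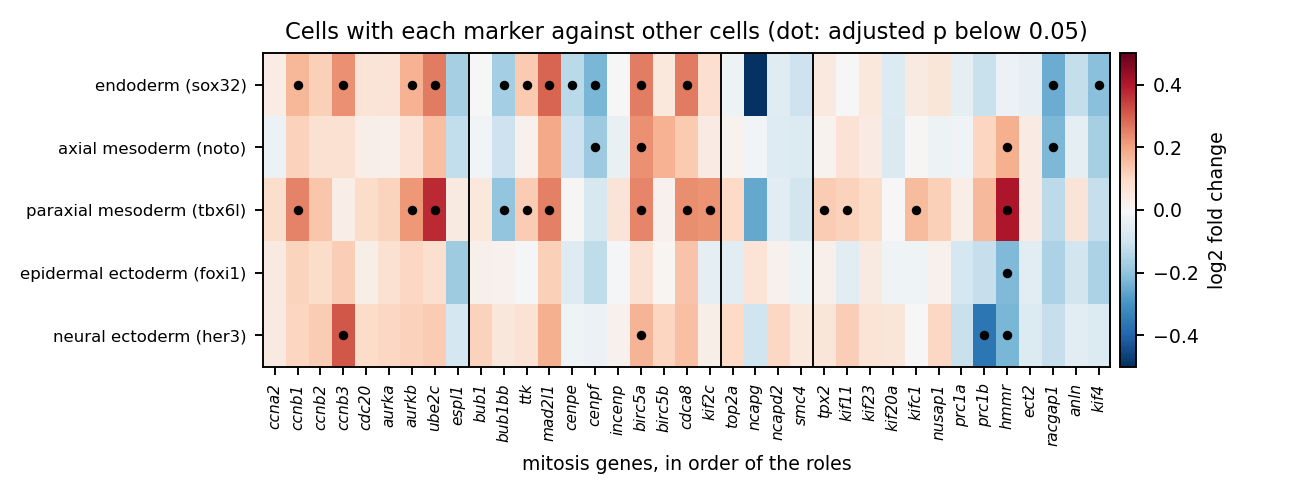
Log2 fold change (colour, −0.5 to 0.5) of each member (x axis, in order of role) in cells with *sox32*, *noto*, *tbx6l*, *foxi1* or *her3* against cells without that marker (y axis), with dots for an edgeR adjusted p below 0.05. The *tbx6l* cells have 13 dots and the *foxi1* cells 1; *hmmr* reaches 0.40 with *tbx6l* and −0.23 with *her3*, and *ncapg* with *sox32*, at −0.50, has no dot.

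The same lists of other cell cycle genes were read in these groups. Over all genes tested, 10.2%, 3.63%, 11.7%, 1.07% and 6.92% were called higher with *sox32*, *noto*, *tbx6l*, *foxi1* and *her3*. In the same order, 6.95%, 2.8%, 9.53%, 1.37% and 11.2% were called lower. The DNA replication list had 12 genes higher and none lower of 34 in both *tbx6l* and *her3* cells (medians 0.11 and 0.10), 10 higher and 2 lower in *sox32* cells, 1 and 1 in *noto* cells and none in *foxi1* cells. Other mitosis genes were higher in 14 and lower in none of 53 in *tbx6l* cells (median 0.09), and higher in 12, 0, 1 and 10 and lower in 1, 1, 0 and 1 in *sox32*, *noto*, *foxi1* and *her3* cells. The single-strand DNA binding subunit *rpa3* was higher with *sox32* (0.41), *tbx6l* (0.31), *her3* (0.23) and *noto* (0.21). Of the list of G1 and cell cycle exit, 3, 3, 6, 4 and 3 of 23 genes were higher with *sox32*, *noto*, *tbx6l*, *foxi1* and *her3*. In the same order 1, 3, 5, 0 and 9 were lower. Among them *gadd45ba* had −1.91 with *her3* and −1.19 with *tbx6l*, and *rbl2* had 1.87 with *foxi1*. Cells with *krt92*, where *gadd45ba* was far higher, were not removed. The cyclin *ccnd1*, of G1, was higher with *tbx6l* (0.40) and lower with *noto* (−0.17). The median UMI number was higher in the marker-positive cells of each library for all 5 markers, and the part of depth in these small differences was not tested beyond the alternatives given.

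The study compared siblings with M*rbm24a* embryos, and over all kept cells no member was called between them by edgeR. Of all 17612 genes 1.02% were called, 5 of 37 members had an unadjusted p under 0.05, and DESeq2 and limma also called none. The summed share was 0.739% on average in siblings and 0.728% in M*rbm24a*, a log2 ratio of −0.02 with overlapping libraries (exact permutation p = 1.00, where 2 against 2 cannot go below 0.33). The 5 members were *ccnb2* (0.26), *birc5b* (0.74), *ncapg* (−1.19), *racgap1* (−0.26) and *kif4* (−0.29, edgeR adjusted p = 0.227). The level of *kif4* was 54.9 and 69.6 CPM in the siblings and 49.5 and 48.4 in M*rbm24a*. Without sibling 1 edgeR called 11 of 37 members and 18.2% of all genes, and with no filter on low counts it called *birc5b* and *ncapg*.

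Within lineages no member was called between genotypes either, with adjusted p-values from edgeR. In *krt92* cells the summed share was higher in M*rbm24a* by a log2 ratio of 0.52, with groups apart (exact permutation p = 0.33, the smallest possible), but by the mean of single-cell shares it was lower, at −0.15. There 0 of 35 members were called (background 0% of 8328 genes), with 3 at an unadjusted p under 0.05, and without M*rbm24a* 1 12 were called, with 18.9% of all genes. In *sox32* cells it was 0 of 37 (2.04%), with 2 at an unadjusted p under 0.05, in *noto* cells 0 (0.392%) with 6, in *tbx6l* cells 0 (0.116%) with 4, in *foxi1* cells 0 (0.0144%) with 4, and in *her3* cells 0 (1.19%) with 5. DESeq2 and limma called 0 in each of these 6. The summed share in *foxi1* cells was 0.729% and 0.754% in siblings and 0.705% and 0.717% in M*rbm24a*, and in *her3* cells 0.728% and 0.772% against 0.723% and 0.725%. These groups were apart, but by log2 ratios of only −0.06 and −0.05, and the exact permutation p was 0.33, the smallest possible, in both.

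Whether a genotype difference was itself different in a lineage was tested as an interaction in edgeR. It was called for 0 of 37 members in *krt92* cells (0.0821% of all genes), with 2 at an unadjusted p under 0.05, in *sox32* cells (2.58%) with 0, in *noto* cells (0.0062%) with 4, in *tbx6l* cells (0%) with 0, in *foxi1* cells (0%) with 1 and in *her3* cells (4.58%) with 1. No other tool was run on the interactions. Without M*rbm24a* 1, 12 members were called in the interaction of *krt92* cells, with 11.7% of all genes.

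In *krt92* cells at 10 or more per 10000 UMIs, a limit set after the values had been seen, the siblings and M*rbm24a* differed more. The genes called between them rested on single libraries and on a few deep cells, and the ratio of the shares was smaller without those cells. The summed shares of 0.218% and 0.215% against 0.356% and 0.392% were apart by a ratio of 1.72 (exact permutation p = 0.33, the smallest possible). Of 32 members tested, edgeR called 5 higher in M*rbm24a* and none lower, against 1.51% of 7228 genes. They were *ccnb3* (19.3 and 9.47 CPM against 54.3 and 64.8, log2 fold change 1.87, adjusted p = 0.0356), *top2a* (45.9 and 34.0 against 191 and 99.2, 1.69, 0.030) and *nusap1* (43.9 and 35.6 against 126 and 120, 1.49, 0.0295). The others were *ccnb1* (105 and 69.8 against 203 and 272, 1.31, 0.0395) and *ccna2* (96.5 and 117 against 228 and 302, 1.19, 0.0476). All 5 were apart between genotypes. The interaction was called for these 5 and for *cenpf* (50.6 and 37.5 against 116 and 104, 1.52) and the minus-end kinesin *kifc1* (22.2 and 25.2 against 86.2 and 49.4, 1.33), 7 of 37 against 2.11% of all genes.

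These calls depended on single libraries. Without sibling 2, or without M*rbm24a* 2, edgeR called no member between genotypes, and without sibling 2 none in the interaction. With cells over 60000 UMIs left out, which removed 4 cells of M*rbm24a* 2, 2 of sibling 1 and 1 of sibling 2, it called 0 of 32 between genotypes (0% of 6532 genes, 9 at an unadjusted p under 0.05) and 0 of 37 in the interaction (0.0238%, 8 at an unadjusted p under 0.05). The summed shares were then 0.221% and 0.222% against 0.356% and 0.291%, still apart by a ratio of 1.45. Over all *krt92* cells of 60000 UMIs or fewer they were 0.299% and 0.368% against 0.356% and 0.349% and overlapped. Along with this difference went others of the same cells: a median of 801 and 1056 EVL marker UMIs per 10000 in siblings against 529 and 722, and a DNA replication share of 0.221% and 0.187% against 0.412% and 0.448%. Their part in the difference was not tested, and fewer cells in mitosis and less mRNA per cell cannot be told apart in such sums.

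**Figure D5:**
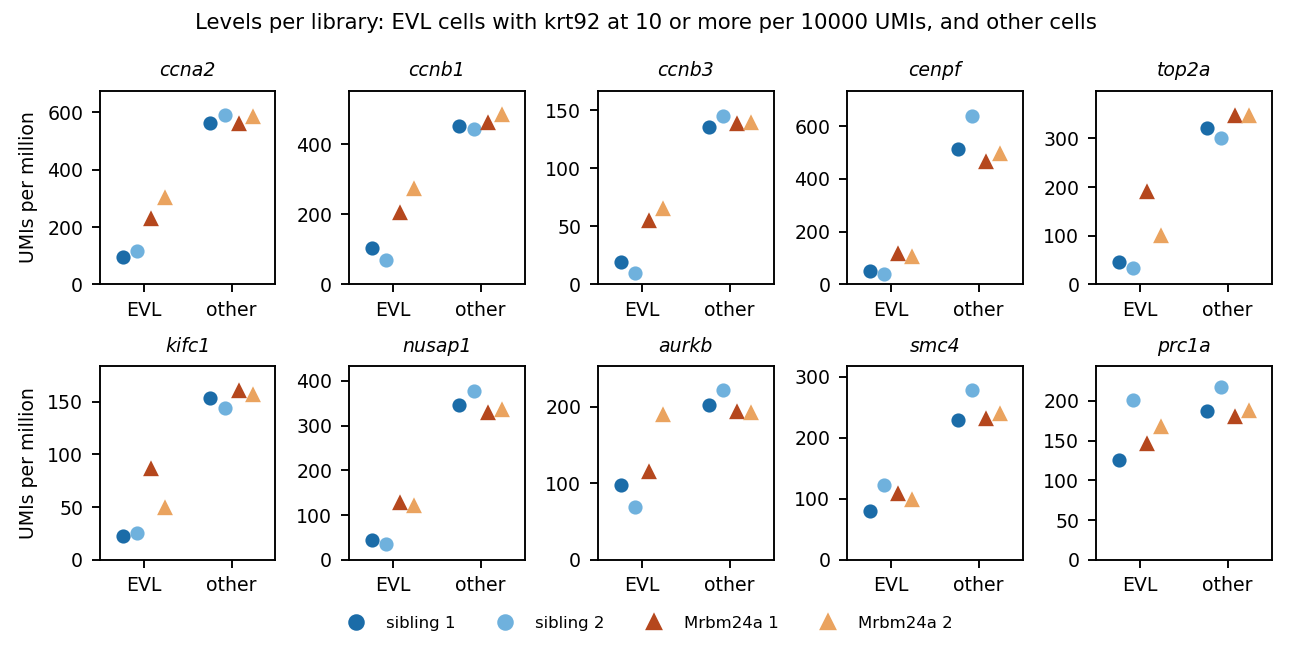
CPM (y axis) of 10 members in *krt92* cells at 10 or more per 10000 UMIs (EVL) and in cells without *krt92* (other), with 1 point per library, circles for siblings and triangles for M*rbm24a*. The first 7 genes are those called in the interaction, such as *top2a* with 45.9 and 34.0 in siblings against 191 and 99.2 in M*rbm24a*; *aurkb*, *smc4* and *prc1a* were not called.

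The members varied together between cells to unlike degrees. Across the kept cells of a library, the level of *cdc20*, as the log2 of its value per 10000 UMIs plus 1, had a mean Pearson correlation of 0.48 with the sum of the other members, *cenpf* and *top2a* 0.46, *nusap1* 0.45 and *kif11* 0.44. At the low end were *espl1* (0.07), *ncapg* (0.03) and *birc5b* (−0.02), all members with few UMIs. These are descriptions across 2354 to 3315 cells that share a library and its depth. The 10 genes outside the cell cycle lists with the pattern most like the summed members, by the mean over 4 libraries of the same correlation, were *hspb1*, *cbx3a*, *hmgb2b*, *tubb2b*, *zgc:158463*, *nop58*, *ppm1g*, *ucp2*, *hmgb2a* and *LOC100535890*, at 0.49 to 0.39. Of the listed mitosis genes outside the set, the proliferation marker *mki67* was the closest at 0.50. The sum of the members had a correlation of 0.49, 0.53, 0.41 and 0.26 with the summed DNA replication list in the 4 libraries.

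Single cells were also compared at equal depth. Thinned to 3000 UMIs, the median kept cell held 21 or 22 UMIs of the set in each library, and the 10th and 90th percentiles lay at 13 to 15 and at 30 to 32. The variance over the mean was 2.38 and 2.50 in siblings and 1.85 and 1.84 in M*rbm24a*, and in cells without *krt92* 2.12 and 2.31 against 1.74 and 1.72. Cells with 5 or fewer such UMIs made up 1.03%, 1.19%, 0.157% and 0.289% of kept cells, and 0.0941%, 0.177%, 0% and 0.0661% of the cells without *krt92*. In *krt92* cells at 10 or more per 10000 UMIs the same share was 38.3%, 52.2%, 8.70% and 13.7%.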

How the data were processed

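Counting of UMIs per gene and cell by the authors used Cell Ranger, after which DecontX corrected the counts for ambient RNA. Scrublet then served to drop doublets, and barcodes were filtered by UMIs, genes and the share of the top genes. What was deposited is therefore a table of estimated counts per gene and cell, which hold decimals and carry no scaling. GRCz10 is the build in the submitters' processing notes. For the Cell Ranger version and the annotation the sources used here give nothing, and no coordinates were used. No further doublet caller was run. Library totals were 40177000 to 61973000 UMIs.

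Cells of 3000 or more UMIs were summed per library, with and without each marker, and the sums were rounded to whole numbers. edgeR 4.0.16 in R 4.3.3 (filterByExpr, TMM, quasi-likelihood test) was run on all genes with Benjamini-Hochberg adjustment and a threshold of 0.05, with the library as a term between lineages and none between genotypes. A minimum of 50 cells per library was first set and lowered to 40, since M*rbm24a* 1 had 46 *krt92* cells. Summed shares were compared by exact permutation tests (Python 3.11.15, scipy 1.17.1). Levels are CPM of the summed cells. Between genotypes, the p-values measure the spread between libraries of pooled embryos, which may be technical. For lineages and interactions, they measure how the difference between cells with and without a marker varied from library to library. The scripts were tested on simulated data with 200 changed genes.

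Alternatives were DESeq2 1.42.0, limma 3.58.1 on log2(CPM + 1), RLE factors, no filter on low counts, 5000 or no minimum UMIs, a marker value over 1.5, cells with several markers left out, the marker called in thinned values, other cells drawn to the depth of the marked cells, the mean of single-cell shares, the replicate number as a block, and each library left out. A marker value over 4.5, *krt92* at 10 or more per 10000 UMIs, and cells over 60000 UMIs left out were chosen after seeing the data, as were the genotype comparisons of summed shares per lineage.

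Members and lists were chosen with earlier results of these data known. Values per library are given for *cdk1*, *ccnb1*, *cdc20*, *plk1*, *aurkb*, *top2a* and *smc4*, for the 5 largest changes per direction of each lineage comparison, for the *birc5* and *prc1* paralogs and for members called between genotypes. Other genes are named up to 4 per direction and list.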

Additional observations from a re-analysis of the deposited data

How the results depend on the processing

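Under the alternatives, the lower share of the mitosis genes in *krt92* cells kept its direction, at a log2 ratio of −1.49 in cells at 10 or more per 10000 UMIs and 60000 UMIs or fewer. The small differences in the other groups moved. Of the 13 members called in *sox32* cells, the count was 1 with limma, 3 with cells of several markers left out, 7 with other cells drawn to the same depth, and 0 with thinned markers or a value over 4.5. In *noto* cells (4) it was 0 with limma, 7 with no low-count filter, 0 with drawn cells and 2 over 4.5, in *tbx6l* cells (13) 4, 21 (several markers left out) and 6 (over 4.5), and in *foxi1* cells (1) 2 with DESeq2, 0 with limma, 4 and 0 (thinned). In *her3* cells (4) it was 13 with DESeq2, 12 with RLE, 10 with no minimum, 9 at 5000 UMIs, 7 over 1.5 and 15 with several markers left out. Of called genes 59.4%, 56.4%, 55.0%, 43.9% and 38.3% were higher in *sox32*, *noto*, *tbx6l*, *foxi1* and *her3* cells, and 25.7%, 66.7%, 20.2%, 57.1% and 11.2% with limma.

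The log2 ratio of the summed share moved in *sox32* cells to 0.0279 (drawn), −0.0654 (over 4.5) and −0.0073 (mean of single cells), in *noto* cells to 0.0238 (several markers left out), −0.0057 (drawn), 0.0283 (thinned) and 0.0140 (mean), and in *tbx6l* cells to 0.0865, 0.0518, 0.0335, 0.0386 (over 4.5) and 0.0362. It moved in *foxi1* cells to 0.0463 (several markers left out) and 0.0210 (over 4.5) and in *her3* cells to 0.0504, 0.0510 (thinned) and 0.0428 (mean). Between genotypes it was 1.08 in *krt92* cells over 4.5 and −0.15 by the mean of single cells, and 0.0543 in *sox32* cells by that mean. With several markers left out, *ube2c* (−0.0142) and *racgap1* (0.0888) changed sign in *sox32* cells and *racgap1* in *noto* cells (0.0208). With drawn cells, *racgap1* (0.0029) and *kif4* (0.0051) did so in *sox32* cells. The causes were not tested.

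Between genotypes, no low-count filter gave 2 called members in all cells and 1, 2 and 2 in *noto*, *foxi1* and *her3* cells. In *krt92* cells at 10 or more per 10000 UMIs 5 were called (6 without sibling 1, 7 without M*rbm24a* 1) and 7 in the interaction (3 without sibling 1, 9 without M*rbm24a* 1, 5 without M*rbm24a* 2), and 3 in the interaction over 4.5. With the replicate block 0 members were called in all 7 genotype comparisons, as without it. The paper speaks of 2 batches of cells, but neither it nor the sample titles say whether the replicate number marks the batch. The numbers were therefore not taken as pairs. The deviations of the libraries numbered 1 had a correlation of 0.09 over 17612 genes, which cannot show whether a batch was shared.

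Leaving out each library in turn, the members called ranged over 9 to 31 in *krt92* cells (23 to 29 in the narrower set), 5 to 7 (*sox32*), 0 to 5 (*noto*), 5 to 11 (*tbx6l*), 0 (*foxi1*) and 1 to 7 (*her3*). Between genotypes they ranged over 0 to 11 (all cells), 0 to 12 (*krt92*, narrower set 0 to 7), 0 (*sox32*), 0 to 5 (*noto*), 0 to 2 (*tbx6l*), 0 to 5 (*foxi1*) and 0 to 5 (*her3*), and in the interactions over 0 to 12 (narrower set 0 to 9), 0 to 1, 0 to 2, 0 to 1, 0 and 0 to 2. The log2 share ratios were −1.17 to −0.84 (narrower set −1.54 to −1.24, with −1.51 without M*rbm24a* 1), −0.0536 to −0.0414, −0.0315 to −0.0194, 0.0061 to 0.0138, −0.0373 to −0.0108 and 0.0041 to 0.0255. Between genotypes they were −0.0648 to 0.0202 in all cells, 0.153 to 0.886 (narrower set 0.716 to 0.856), −0.0378 to 0.0249, −0.0627 to 0.0161, −0.0779 to 0.0159, −0.0850 to −0.0366 and −0.0911 to −0.0069. A genotype left with 1 library was assumed to vary like the other. For *krt92* cells, leaving out cells with several markers was not run, since a library then held under 40 cells.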

Other observations

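A list of 6 p53 target genes, of which 5 were tested, differed with several markers. In *foxi1* cells all 5 were higher by edgeR, against 1.07% of all genes, led by *foxo3b* (log2 fold change 1.68), *phlda3* (1.31), *casp8* (1.20) and *mdm2* (0.80). In *her3* cells all 5 were lower, against 11.2% of all genes, led by *foxo3b* (−0.71) and *casp8* (−0.56). The CDK inhibitor *cdkn1a* was among them, at 0.59 (edgeR adjusted p = 0.00373) in *foxi1* cells and −0.27 (adjusted p = 0.0284) in *her3* cells. In *tbx6l* cells 2 of 5 were higher, against 11.7% of all genes, and in *sox32* cells 1 of 5, against 10.2%. In *krt92* and *noto* cells edgeR, the only tool run on the list, called 0 of 5, with 3 and 1 at an unadjusted p under 0.05.

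Between genotypes, over all kept cells, where 1.02% of all genes were called, *cdkn1a* (0.51, edgeR adjusted p = 0.0481) and *phlda3* (0.67, adjusted p = 0.0476) were higher in M*rbm24a*, and *gadd45ba* was lower (−0.92, adjusted p = 0.0187). Within the 6 lineages no p53 target was called between genotypes by edgeR, with 0 of 2 at an unadjusted p under 0.05 in *krt92* cells and 3, 4, 5, 5 and 4 of 5 in *sox32*, *noto*, *tbx6l*, *foxi1* and *her3* cells. The level of *gadd45ba* was 17.3 in both siblings and 8.46 and 9.22 CPM in M*rbm24a*. In the cells without *krt92* it was 7.82 and 6.83 against 2.72 and 1.68. In *sox32* cells it was 8.11 and 9.69 against 8.36 and 8.17, and in *her3* cells 4.23 and 5.50 against 3.86 and 4.68, which overlap. The interaction of genotype and lineage was called for *gadd45ba* in both, at 1.13 (edgeR adjusted p = 0.00126) with *sox32* and 1.11 (adjusted p = 2.3e-05) with *her3*. Cells with *krt92*, where *gadd45ba* was far higher, stayed on both sides. EVL markers took 0.0152% and 0.0250% of UMIs in *sox32* cells of siblings against 0.120% and 0.104% in M*rbm24a*. Without *sox32* they took 0.368% and 0.359% against 0.198% and 0.215%. For *her3* these were 0.0115% and 0.00993% against 0.0352% and 0.0520%, and 0.407% and 0.423% against 0.213% and 0.225%. The part of these cells in the interaction was not tested.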
